A study of Homo sapiens with 54 samples.

Results

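The response of LNCaP tumors to castration was described across all genes by comparing 8 POST-CX tumors with 9 PRE-CX tumors, chosen by their group label, which are 17 of the 54 tumors in the series. LNCaP, a human cell line from a prostate cancer metastasis, needs androgens for full growth, and all 54 tumors were grown from its clone FGC under the skin of male NOD-SCID mice, animals without functional T and B cells that were 5 to 6 weeks old when obtained. PRE-CX mice had mock surgery at a tumor size of about 200 mm3 and kept their testes, and their tumors were taken at 1000 mm3. POST-CX mice were surgically castrated at about 200 mm3 and their tumors were taken a week later, at the first low point of serum prostate-specific antigen. The remaining castrated groups were CRPC (n = 10), taken after relapse, and, under enzalutamide at 10 mg/kg, ENZS (n = 12), taken at the second low point of the antigen, and ENZR (n = 15), taken after relapse on the drug. Each tumor came from its own mouse, so the spread below is between animals, but all tumors descend from a single cell line. Castration and the difference in tumor size and age at harvest cannot be told apart in this comparison.

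Androgens switch on genes of secretion, lipid synthesis and growth in the prostate epithelium and hold other genes down. Castration removes testicular androgen, so that induced genes lose their stimulus and repressed genes are released. LNCaP cells respond to androgens and secrete prostate-specific antigen, which makes the line a common model of this response.

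Expression was given as TPM, the share of a gene's transcripts per 1000000 transcripts of a tumor, and each tumor was rescaled here so that its human genes sum to 1000000. Before rescaling, human genes made up 82.7 to 97.5% of the total in PRE-CX tumors and 85.1 to 94.4% in 6 POST-CX tumors, but 59.7% in POST-CX mouse 48 and 27.9% in POST-CX mouse 91. The same 2 tumors had the highest share of mitochondrially encoded RNA, 24.6 and 26.7%, against 9.19 to 20.2% in PRE-CX and 14.2 to 18.5% in the rest of POST-CX. The part of these differences in the results was not tested, and calls of named genes lost without them are given beside the genes. The 14 luminal markers summed to 5846 to 11904 TPM in PRE-CX and 4461 to 7141 in POST-CX, though not every member was abundant. KRT8, a keratin of luminal cells, ran from 282 to 704 TPM in PRE-CX and 266 to 373 in POST-CX, whereas KRT19 was low in POST-CX, as given below. Of 26 markers of stroma, blood and fat, 9 reached the expression filter, and their summed level over all 26 was 11.8 to 24.3 TPM in PRE-CX and 16.3 to 44.0 in POST-CX, highest in mouse 91. The defining markers of endothelium and blood (PECAM1, CDH5, KDR, PTPRC, CD3E, C1QA and HBB) did not pass the filter. Only human genes were kept, so genes of the mouse host were not measured. Whether reads from vessels, blood, stroma or fat of the host were assigned to the 26 human markers was not tested. Only COL3A1, a fibrillar collagen, passed the test among these markers, with 0.214 to 3.10 TPM, median 0.841 in PRE-CX and 1.88 to 21.3 TPM, median 2.94 in POST-CX, and its call was lost without mouse 91 (adjusted p = 0.0643 by limma).

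Castration was accompanied by a broad change. Of 17593 genes tested with limma on log2(TPM + 1), 4620 (26.3%) passed at an adjusted p under 0.05, 3631 (20.6%) higher and 989 (5.62%) lower in POST-CX. With a log2 difference of at least 1 also required, 645 genes (3.67%) were called, 420 (2.39%) higher and 225 (1.28%) lower. In bulk tissue, fewer cells of a type and less RNA per cell cannot be told apart. Differences are on the log2(TPM + 1) scale, which understates the change of genes near 0. The balance of directions depended on scaling. The median log2 difference of all genes was 0.16 after rescaling, and 78.6% of the genes that passed were higher. Of the called genes 65.1% were higher after rescaling, 39.3% after centering, 35.0% as deposited, 79.8% with a pseudocount of 0.1, and without mice 48 and 91 the shares were 84.8% of passing and 69.2% of called genes. When each tumor was centered on its own median, the median difference was -0.03 and 41.4% of 4319 passing genes were higher, and with the TPM as deposited it was -0.05 and 38.3% of 741. Differences are therefore read against the value of 0.16. Counts of list members after rescaling are read against the 20.6% of all genes higher and 5.62% lower. Among genes with a mean above 100 TPM over all 54 tumors, 198 passed higher and 174 lower of 1557, against 1586 and 265 of the 6637 genes between 1 and 10 TPM. Of 927 genes that RefSeq lists as long non-coding RNA, 302 passed higher and 30 lower, and of 12431 protein-coding genes 2513 and 813. Of 84 ribosomal protein genes, which have many near-identical copies and are uncertain for that reason, 1 passed higher and 2 lower.

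**Figure D1:**
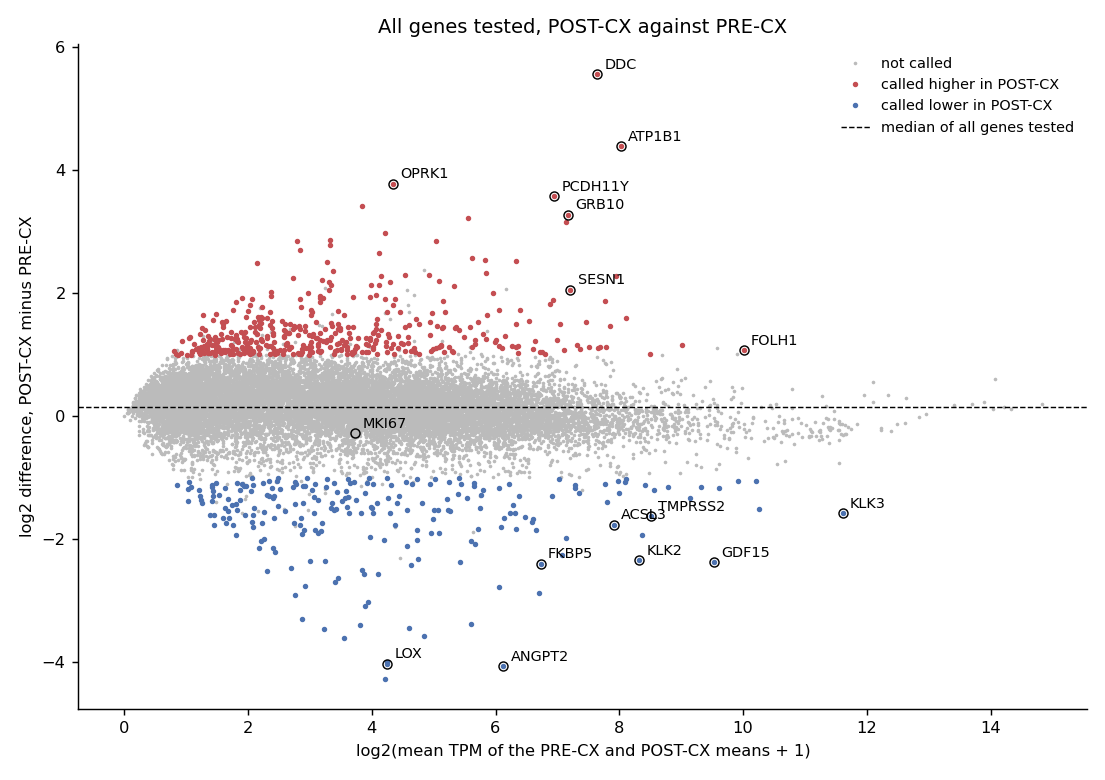
Each point is 1 of the 17593 genes tested. The horizontal axis is the mean level of both groups as log2(TPM + 1), the vertical axis the log2 difference of POST-CX minus PRE-CX, and the dashed line the median of all genes, 0.16. Called genes are colored, 420 higher and 225 lower, and circled genes are named in the text.

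Genes that androgens induce in prostate cells were lower almost throughout. Of 30 listed genes 29 were tested, 26 passed lower and none higher (limma, unadjusted p under 0.05 also in 26 lower and none higher), with a median log2 difference of -1.34. In 13 of them every POST-CX tumor was below every PRE-CX tumor, against 1.17% of all genes without overlap in that direction. The 3 that did not pass were KLK4, ZBTB10 and ZBTB16, with log2 differences of -0.54, -0.38 and -0.24.

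KLK3, which encodes prostate-specific antigen, a secreted serine protease, lies on chromosome 19 beside KLK2. KLK3 ran from 2129 to 6769.6 TPM, median 4679, in PRE-CX and from 604 to 3203 TPM, median 1529, in POST-CX, so that 6 of 8 castrated tumors were below all intact ones and the others, mice 48 and 99, were within the intact range. Its mean was 4592 ± 1467 TPM (SD, n = 9) against 1671 ± 905 (n = 8), a difference of -1.58 on the log2 scale (SE 0.52, adjusted p by limma = 0.0201). KLK3 was lowest in mouse 91, and without that tumor the difference was -1.39 and missed the threshold (adjusted p = 0.0527). With the TPM as deposited KLK3 also missed it (-1.85, adjusted p = 0.0825 by limma). Of the 20 promoters of the androgen-induced list present in the RefSeq table, 3 (15.0%) held the androgen response half-site AGAACA on either strand within 250 bases before and 50 after the start, against 14.9% of 27305 promoters and 9.17% of those of genes tested here. The 3 were KLK3, FKBP5 and PMEPA1. The KLK3 promoter is shown because it controls the gene that serves as the clinical readout, and its match, a description of letters only, lies 170 to 165 bases before the start. The 250 bases before the RefSeq start (GRCh38.p14, chr19:50854665-50854914, plus strand) read as follows, with the half-site in capitals.
KLK3 promoter: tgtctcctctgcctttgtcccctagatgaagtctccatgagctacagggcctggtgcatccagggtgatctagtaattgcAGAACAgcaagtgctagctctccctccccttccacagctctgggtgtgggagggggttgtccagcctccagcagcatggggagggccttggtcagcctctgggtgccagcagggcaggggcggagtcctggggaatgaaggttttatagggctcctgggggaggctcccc

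Other members fell further than KLK3. KLK2, a kallikrein protease that activates prostate-specific antigen, ran from 189.5 to 1307 TPM, median 465, in PRE-CX and 35.7 to 223 TPM, median 88.7, in POST-CX, with a log2 difference of -2.34 (SE 0.57, adjusted p = 0.00197). FKBP5, an immunophilin that works with the chaperones of steroid receptors, had 91.8 to 423 TPM, median 152, in PRE-CX and 14.1 to 36.7 TPM, median 34.5, in POST-CX, without overlap. The FKBP5 mean went from 179.9 ± 104 (SD, n = 9) to 30.7 ± 7.83 TPM (n = 8), a log2 difference of -2.40 (SE 0.33, adjusted p = 4.8e-07). The lowest castrated tumor was mouse 91, and the SD was smaller in castrated than in intact tumors. TMPRSS2, a membrane protease whose promoter is the usual fusion partner in prostate cancer, had 359 to 975 TPM, median 452, in PRE-CX and 73.3 to 326 TPM, median 179, in POST-CX, again without overlap, and a log2 difference of -1.62 (SE 0.32, adjusted p = 0.00018).

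Several genes of this list fell more steeply than those above. ORM1, an acute-phase plasma glycoprotein, had 4.32 to 74.2 TPM, median 35.8, in PRE-CX and 0.255 to 1.82 TPM, median 0.871, in POST-CX, a log2 difference of -3.996 (SE 0.25, adjusted p = 5.15e-18). The fit pools the spread of all 5 groups, and ORM1 averaged 0.519, 0.158 and 0.241 TPM in CRPC, ENZS and ENZR. Its highest adjusted p by limma in the 28 alternatives was 5.45e-07. Its lowest intact tumor, mouse 111, was still above every castrated tumor, and reads of ORM1 and its close copy ORM2 may have been divided between them. STEAP4, a metalloreductase, had 5.81 to 39.9 TPM, median 13.9, in PRE-CX and 0.0424 to 0.712 TPM, median 0.401, in POST-CX (log2 difference -3.45, SE 0.35). HPGD, the enzyme that inactivates prostaglandins, went from a median of 23.0 to 1.18 TPM (-3.39, SE 0.28), and SLC45A3, a prostate-restricted transporter, from 161 to 23.7 (-2.88, SE 0.46). TRPM8, a cold-sensing cation channel, fell by 2.50 on the log2 scale, from 16.4 to 2.25 TPM. At the mild end of the 26, PLPP1, a lipid phosphatase, differed by -0.62 and CAMKK2, a calcium-dependent kinase upstream of AMPK, by -0.69.

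**Figure D2:**
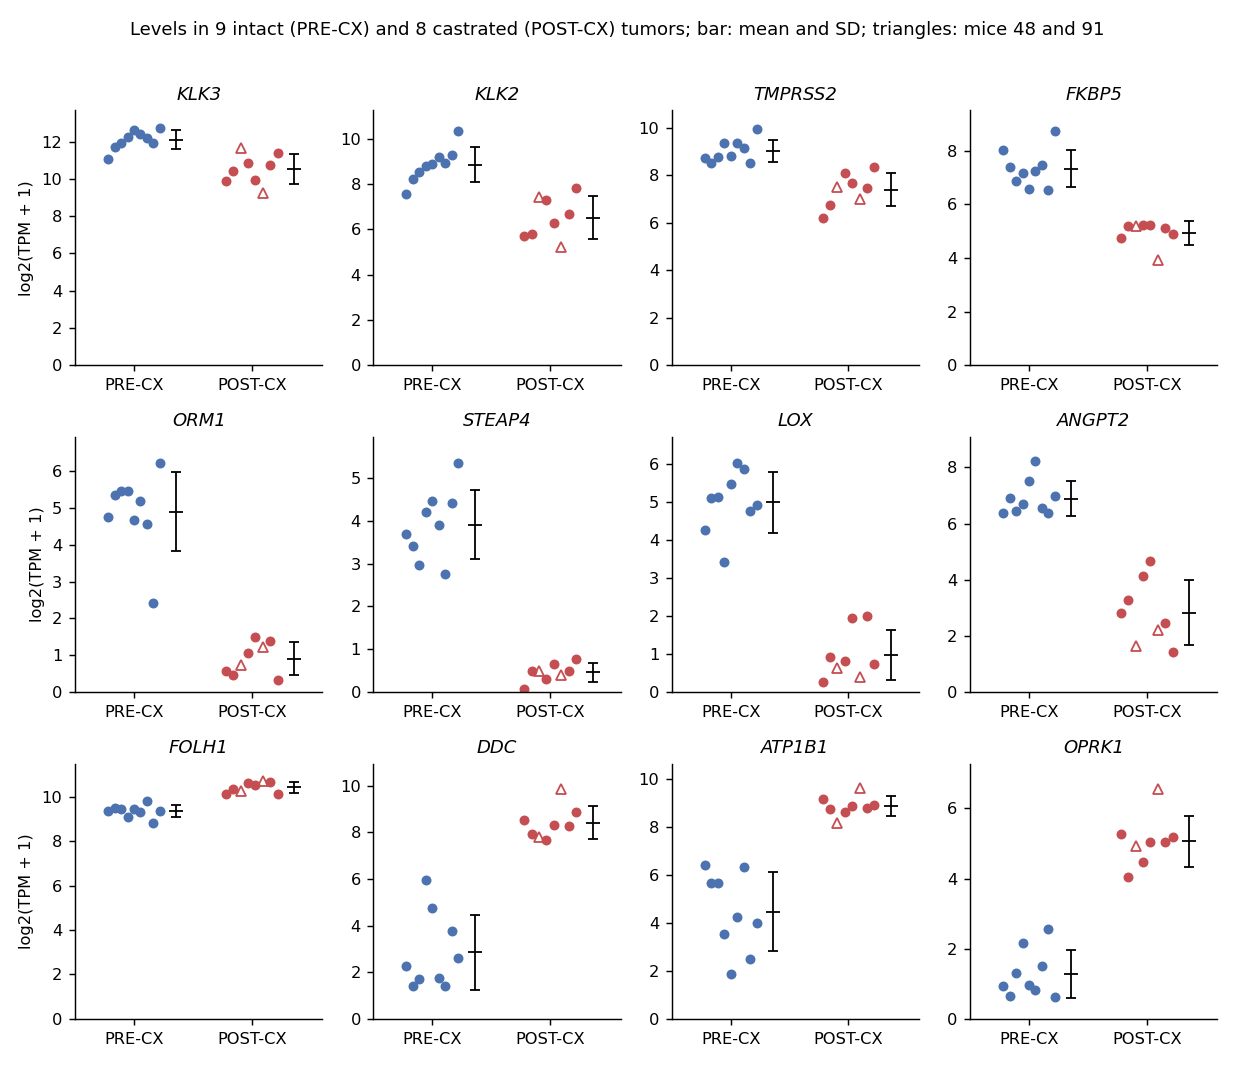
Levels of 12 genes as log2(TPM + 1) in every PRE-CX (blue) and POST-CX (red) tumor. Each point is 1 tumor, the bar shows the mean and SD, and triangles are POST-CX mice 48 and 91. FKBP5, TMPRSS2, ORM1, STEAP4, LOX and ANGPT2 are lower, and FOLH1, DDC, ATP1B1 and OPRK1 higher, in POST-CX without overlap, while KLK3 and KLK2 overlap in 2 tumors and 1 tumor.

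Genes known to be repressed by androgens moved the other way. Of 15 listed genes 14 were tested, 10 passed higher and 1 lower, with a median of 1.11 (none passed lower without mouse 91 and the other tumors of low human total, and with the TPM as deposited 4 passed higher and none lower, against 8 and 1 unadjusted), and in 5 of them every castrated tumor was above every intact one, against 3.82% of all genes. FOLH1, the folate hydrolase known as prostate-specific membrane antigen, had 453 to 896 TPM, median 666, in PRE-CX and 1107 to 1691 TPM, median 1399.7, in POST-CX. The groups did not overlap, and the mean went from 663 ± 122 (SD, n = 9) to 1397 ± 240.0 TPM (n = 8), a log2 difference of 1.08 (SE 0.21, adjusted p = 0.000165). FOLH1 did not pass with the TPM as deposited (0.80, adjusted p = 0.117 by limma). UGT2B15 and UGT2B17, which attach glucuronic acid to androgens for removal, rose from medians of 2.73 and 4.14 to 21.9 and 37.4 TPM, with log2 differences of 2.13 and 2.30. UGT2B28 of the same family was the member that fell, by 1.13 on the log2 scale, with a median of 2.06 TPM in PRE-CX and 0.985 in POST-CX, and the values of this near-identical family are uncertain. NR3C1, the glucocorticoid receptor, did not pass (0.16), with medians of 0.418 and 0.597 TPM.

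The 3 largest rises on that list were also among the largest of all genes. DDC, the aromatic amino acid decarboxylase that makes dopamine and serotonin, had 1.68 to 60.3 TPM, median 3.88, in PRE-CX and 202 to 938 TPM, median 315, in POST-CX, a log2 difference of 5.56 (SE 0.58, adjusted p = 2.39e-10). Among intact tumors it was highest in mouse 53, and among castrated ones in mouse 91. OPRK1, the kappa opioid receptor, had 0.556 to 4.88 TPM, median 0.936, in PRE-CX and 15.3 to 92.6 TPM, median 32.1, in POST-CX (3.78, SE 0.49), and ACKR3, a scavenging receptor for CXCL12, had 0.379 to 43.4 TPM, median 6.70, and 46.9 to 120.2 TPM, median 80.5 (3.23, SE 0.44). Neither gene overlapped between the groups, and OPRK1 was again highest in mouse 91.

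Among genes with a mean of at least 5 TPM, the largest rises after DDC were led by ATP1B1, the beta subunit of the sodium pump, which had 2.71 to 83.6 TPM, median 17.9, in PRE-CX and 285 to 793 TPM, median 456, in POST-CX (4.39, SE 0.49, adjusted p = 2.33e-09). GRB10, an adaptor that binds the insulin and IGF receptors, had 16.4 to 46.2 TPM, median 21.99, and 131 to 395 TPM, median 259 (3.28, SE 0.39). AOC1, the diamine oxidase that breaks down histamine and putrescine, was at or below 1.42 TPM in every intact tumor and between 3.78 and 122 in castrated ones (3.41, SE 0.70). Of the 10 largest rises 7 did not overlap between the groups, against 3.82% of all genes. They were picked by their difference in the same tumors, so this count is a description only. The exceptions were GASK1B, a kinase-like Golgi protein, STXBP5L, a syntaxin-binding protein, and BCHE, butyrylcholinesterase, with 7, 6 and 7 of 8 castrated tumors above the intact range. GASK1B rose by 3.17 and STXBP5L by 2.99. BCHE rose by 2.86 (SE 0.72) from a median of 0.766 to 16.5 TPM. PCDH11Y, a protocadherin with a near-identical copy on the X chromosome, rose by 3.58 (SE 0.59), from a median of 13.1 to 190.2 TPM, and its share of reads against that copy is uncertain.

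The largest falls outside the androgen-induced list included matrix and vessel factors. ANGPT2, a ligand of the endothelial receptor TEK, had 81.0 to 297 TPM, median 103, in PRE-CX and 1.69 to 24.5 TPM, median 5.24, in POST-CX (-4.06, SE 0.59, adjusted p = 1.23e-06). AKAP12, a scaffold of protein kinase A, had 4.01 to 71.9 TPM, median 13.0, and 0.184 to 0.504 TPM, median 0.284 (-3.60, SE 0.34). Both were lower in every castrated tumor than in any intact one, and AKAP12 spread widely in intact tumors, with mouse 62 highest. ST6GALNAC1, a sialyltransferase that builds the sialyl-Tn antigen, had 27.9 to 61.6 TPM, median 41.6, in PRE-CX and 1.67 to 4.77 TPM, median 3.13, in POST-CX (-3.45, SE 0.23). The transcripts PSLNR, AP001160.5 and AL589182.1 fell, with log2 differences of -3.57, -4.26 and -3.38. AP001160.5, for which RefSeq gave no match, was listed at 0 in every castrated tumor but mouse 48, which had 7.13 TPM.

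Glycolysis and the hypoxia response were lower in castrated tumors. Hypoxia-inducible factors bind a short DNA core and induce enzymes of glucose breakdown, vessel growth factors and matrix enzymes when oxygen is scarce. Of 21 glycolysis genes tested 17 passed lower and none higher (limma, unadjusted p under 0.05 in 18 lower and none higher), with a median of -0.76. Of 21 hypoxia genes 13 passed lower and none higher (unadjusted in 16 lower and none higher), with a median of -0.99. Over all genes 5.62% passed lower and 20.6% higher. Without mice 48 and 91, 10 glycolysis and 11 hypoxia genes passed lower. Summed over the 21 glycolysis genes, POST-CX tumors had 7031 ± 1595 TPM (SD, n = 8) and PRE-CX tumors 12646 ± 3808 (n = 9).

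LOX, which cross-links collagen, fell the most, with 9.66 to 64.1 TPM, median 33.3, in PRE-CX and 0.201 to 3.01 TPM, median 0.711, in POST-CX (-4.02, SE 0.26, adjusted p = 2.15e-17). Its highest adjusted p by limma in the 28 alternatives was 1.21e-07. LDHA, which turns pyruvate into lactate, had 939 to 3315 TPM, median 1557, and 219.6 to 941 TPM, median 668 (-1.51, SE 0.42, adjusted p = 0.00636). LOX did not overlap between the groups, and 1 of 8 castrated tumors was within the intact range of LDHA. The core ACGTG occurred on either strand in 8 of 17 hypoxia promoters in the RefSeq table (47.1%) and in 8 of 20 glycolysis promoters (40.0%), against 26.8% of the promoters of genes tested and 21.6% of all 27305. The promoters of LOX and LDHA are shown because they hold 4 and 5 matches in the 250 bases before the start, and in LDHA 4 of the 5 overlap in pairs as CACGTG, read on both strands, while the fifth is a lone CACGT. Sequences are RefSeq, GRCh38.p14, 5′ to 3′ on the gene's strand, LOX at chr5:122078260-122078509 on the minus strand and LDHA at chr11:18394313-18394562 on the plus strand, with matches in capitals.
LOX promoter: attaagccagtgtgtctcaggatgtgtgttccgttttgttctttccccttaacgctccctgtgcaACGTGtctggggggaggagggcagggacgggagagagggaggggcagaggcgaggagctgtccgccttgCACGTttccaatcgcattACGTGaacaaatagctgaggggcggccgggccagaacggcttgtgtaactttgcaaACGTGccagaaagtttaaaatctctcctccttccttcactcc
LDHA promoter: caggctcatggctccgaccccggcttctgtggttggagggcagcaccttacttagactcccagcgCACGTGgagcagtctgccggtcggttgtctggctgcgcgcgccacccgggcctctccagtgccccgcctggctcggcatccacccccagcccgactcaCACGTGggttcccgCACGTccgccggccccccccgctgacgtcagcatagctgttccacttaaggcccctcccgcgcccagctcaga

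Transcripts of single steps are given next. HK2, the inducible hexokinase, had 14.2 to 72.1 TPM, median 22.2, in PRE-CX and 3.44 to 17.6 TPM, median 8.44, in POST-CX (-1.57, SE 0.39), and the glucose transporter SLC2A1 fell by 0.90 on the log2 scale. SLC16A3, which exports lactate, fell by 1.65 from a median of 7.11 to 1.49 TPM, a call lost without mice 48 and 91 (-1.35, adjusted p = 0.0590). PFKFB3 and PFKFB4, which set the level of the activator of phosphofructokinase, fell, with log2 differences of -1.41 and -1.52, and so did PGK1 (-1.32) and ENO1 (-1.04). PFKM and PFKL, the muscle and liver forms of phosphofructokinase, and ENO2 and PKM did not pass, with log2 differences of 0.28, -0.03, -0.64 and -0.52. ERO1A, an oxidase of the endoplasmic reticulum, had 27.7 to 173 TPM, median 65.2, in PRE-CX and 10.2 to 23.5 TPM, median 16.5, in POST-CX (-2.03, SE 0.39), without overlap. PDK1, which keeps pyruvate out of mitochondria, fell (-1.53), as did BNIP3, a mitophagy receptor (-1.40), and HILPDA, a lipid droplet protein (-1.54). P4HA1, a collagen hydroxylase, and MXI1, which opposes MYC, differed by 0.13 and -0.07 and did not pass.

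VEGFA, the main growth factor of vessels, had 83.2 to 409 TPM, median 141, in PRE-CX and 41.3 to 120.2 TPM, median 79.4, in POST-CX (-1.02, SE 0.30, adjusted p = 0.00897), and 5 of 8 castrated tumors were below the intact range. Of 21 angiogenic factors 10 were tested, and 3 passed lower (ANGPT2, VEGFA and VEGFB), beside 5.62% of all genes. PDGFA, with medians of 6.08 and 8.85 TPM, was the 1 that passed higher, beside 20.6% of all genes. The PDGFA call was lost in 12 of 28 alternatives, among them centering (adjusted p = 0.128) and leaving out mouse 91 (adjusted p = 0.113).

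**Figure D3:**
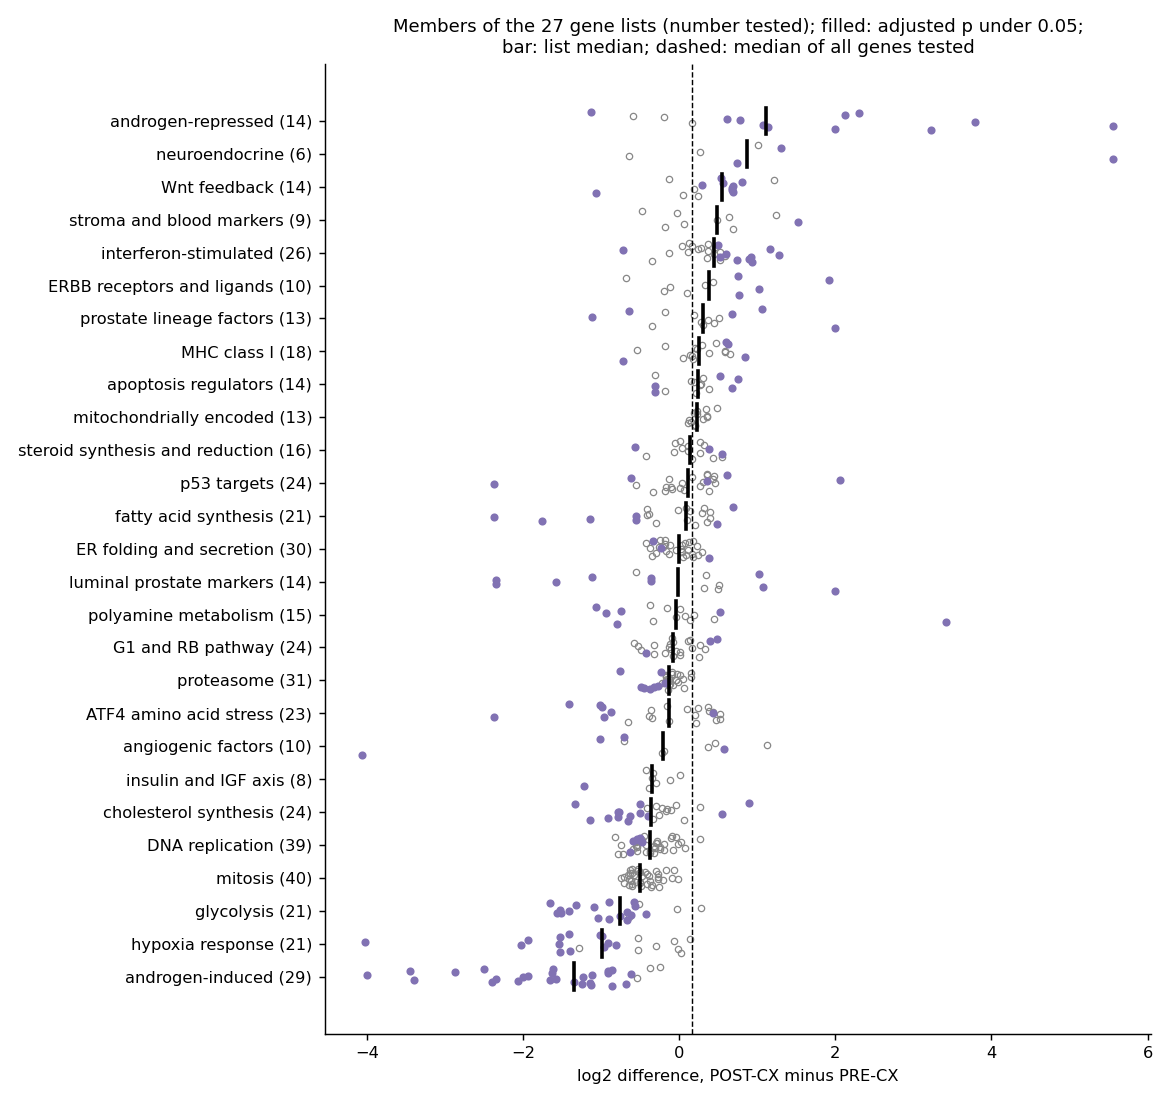
Log2 differences (POST-CX minus PRE-CX, horizontal axis) of the tested members of 27 gene lists, ordered by list median. Filled points passed at an adjusted p under 0.05, black bars are list medians and the dashed line is the median of all genes, 0.16. The androgen-induced, hypoxia and glycolysis lists have medians of -1.34, -0.99 and -0.76, and the androgen-repressed list 1.11.

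Lipid synthesis changed unevenly. Of 24 cholesterol synthesis genes tested 11 passed lower and 2 higher, with a median of -0.37, beside 5.62% of all genes lower and 20.6% higher. After centering 17 passed lower and 2 higher, and as deposited 7 lower and none higher (limma, unadjusted 13 lower and none higher). SQLE, the squalene epoxidase of a rate-limiting step, had medians of 41.8 and 37.9 TPM and did not pass (-0.04, SE 0.14, adjusted p = 0.85). STARD4, a sterol carrier, had 7.81 to 20.3 TPM, median 16.9, in PRE-CX and 3.80 to 7.89 TPM, median 5.74, in POST-CX, with 7 castrated tumors below the intact range (-1.33, SE 0.26, adjusted p = 0.000141). FDFT1 and EBP, which make squalene and isomerize sterol intermediates, differed by -0.79 and -0.91, both without overlap. INSIG1, the sterol-sensing anchor, fell by 0.78, also without overlap. TM7SF2 and HSD17B7, which act on intermediates after lanosterol, rose by 0.89 and 0.54, HSD17B7 without overlap. The motif TCACNCCAC, bound by the sterol-regulated factor SREBP, was in 1 of 18 cholesterol promoters (SREBF2, 5.56%) and in 1.15% of all promoters in the same window, so no promoter of this list is shown.

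In fatty acid synthesis 5 of 21 genes tested passed lower and 2 higher, with a median of 0.09, close to that of all genes. Over all genes 5.62% passed lower and 20.6% higher. Those that fell were ELOVL1, ELOVL5, ELOVL7, FADS1 and ACSL3, and after centering 8 passed lower and 1 higher. ELOVL7, an elongase of very long chains, had 24.6 to 115 TPM, median 67.0, in PRE-CX and 5.38 to 19.3 TPM, median 12.9, in POST-CX (-2.37, SE 0.32, adjusted p = 3.98e-07). ACSL3, which activates long-chain fatty acids, had 161 to 592 TPM, median 364, and 64.2 to 141 TPM, median 102 (-1.76, SE 0.18), and ELOVL5 fell by 1.15. ELOVL7 and ACSL3 did not overlap between groups, whereas the core enzymes FASN, ACLY and SCD did not pass, with -0.39, -0.30 and -0.42. ACACB, the mitochondrial acetyl-CoA carboxylase, rose by 0.48 (adjusted p = 0.0229), which centering reduced to 0.29 (adjusted p = 0.123). Of 16 tested genes of steroid synthesis and reduction 2 passed higher and 1 lower, among them FDX1, the electron donor of the mitochondrial enzymes, with medians of 13.1 and 19.8 TPM (0.55, SE 0.12). The 1 that fell was HSD17B6, from 3.46 to 1.90 TPM, and CYP17A1, which makes androgen precursors, did not pass the filter.

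Proliferation genes showed no change that passed in the mitosis list in the fit of all 54 tumors. Of 40 mitosis genes none passed in limma, 2 were lower and none higher at an unadjusted p under 0.05, and all had a negative log2 difference, with a median of -0.50 that was -0.28 without tumors of low human total, in this comparison mouse 91. MKI67, the Ki-67 antigen, had 5.04 to 25.8 TPM, median 13.7, in PRE-CX and 5.77 to 15.1 TPM, median 11.0, in POST-CX (-0.28, SE 0.33, adjusted p = 0.552), so castrated tumors lay within the intact range. MAD2L1, a spindle checkpoint protein with the smallest p of the list, had medians of 77.5 and 50.9 TPM (-0.66, SE 0.29, adjusted p = 0.0893 by limma). MAD2L1 passed in 3 of 28 alternatives. These were centering (-0.85, adjusted p = 0.049), array weights (-0.54, adjusted p = 0.0254) and only PRE-CX and POST-CX in the fit (-0.66, adjusted p = 0.00723). Of 39 DNA replication genes 6 passed lower and none higher (unadjusted 12 lower and 1 higher), with a median of -0.38, beside 5.62% of all genes lower. PRIM2, a primase subunit, fell by 0.59 on the log2 scale, without overlap. FEN1, the flap endonuclease, fell by 0.63, a call lost in 11 of 28 alternatives, among them leaving out mouse 91 (-0.49, adjusted p = 0.112). Without the same tumor and the other low totals 2 replication genes passed lower with a median of -0.23, with centering 16 did, and with the TPM as deposited none did in limma (16 lower and none higher at an unadjusted p under 0.05).

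Of 24 tested genes of the G1 phase and RB pathway 2 passed higher and 1 lower, beside 20.6% of all genes higher and 5.62% lower. After centering 1 passed higher and 5 lower, and without tumors of low human total 1 and none. RBL2 and RB1, the pocket proteins that hold E2F factors, rose by 0.49 and 0.39, and CDK2, the kinase of S phase entry, fell by 0.43. The RB1 and CDK2 calls were close to the threshold (adjusted p = 0.0463 and 0.0494) and were lost in 18 and 19 of 28 alternatives. CCND1 and MYC, which drive G1 progression, did not pass, with 0.26 and 0.11.

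Some receptors and ligands of growth pathways rose. Of 10 tested ERBB genes 4 passed higher and none lower (unadjusted 4 higher and 1 lower), with a median of 0.38, beside 20.6% of all genes higher. After centering 3 passed higher and 2 lower, and with the TPM as deposited 1 higher and none lower (limma, unadjusted 4 higher and 1 lower). ERBB2, the co-receptor of the family, had 42.4 to 111 TPM, median 74.2, in PRE-CX and 99.2 to 184 TPM, median 153, in POST-CX (1.02, SE 0.21, adjusted p = 0.000374), with 7 castrated tumors above the intact range. The ligands TGFA, BTC and NRG3 rose by 0.75, 0.77 and 1.92, the last from a median of 0.322 to 3.59 TPM. EGFR and ERBB3 did not pass, with log2 differences of -0.20 and -0.12. Of 8 tested genes of the insulin and IGF axis only IGF1R, the receptor of IGF1, passed, with 2.17 to 26.4 TPM, median 15.0, in PRE-CX and 2.10 to 10.8 TPM, median 4.69, in POST-CX (-1.23, SE 0.32). These IGF1R ranges overlapped in most tumors, and INSR, the insulin receptor, differed by 0.01.

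In the Wnt list 8 of 14 tested genes passed higher and 1 lower, with a median of 0.55, beside 20.6% of all genes higher and 5.62% lower. After centering 4 passed higher and 1 lower, and with the TPM as deposited none higher and 1 lower (limma, unadjusted p under 0.05 in 2 higher and 1 lower). RNF43 and ZNRF3, ligases that remove Wnt receptors, rose by 0.80 and 0.53, the co-receptors LRP5 and LRP6 by 0.68 and 0.68, and LEF1, a factor that acts with beta-catenin, by 0.68. FZD5, a Wnt receptor, fell by 1.07, from a median of 15.7 to 7.48 TPM. Without tumors of low human total 5 passed higher and 1 lower, and AXIN2, a usual readout of the pathway, did not pass (0.24).

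Factors of prostate lineage moved in both directions. Of 13 tested, 3 passed higher, among them TBX3 and POU2F3, and 2 lower, among them SPDEF, beside 20.6% of all genes higher and 5.62% lower. The transcription factors FOXA1, HOXB13 and GATA2 differed by 0.30, 0.51 and 0.44 and did not pass, although HOXB13 was above the intact range in all 8 castrated tumors. TBX3 had 21.8 to 123 TPM, median 75.4, in PRE-CX and 94.2 to 198 TPM, median 139, in POST-CX (1.05, SE 0.22). SPDEF had 55.3 to 146 TPM, median 59.4, and 32.7 to 48.2 TPM, median 44.3 (-0.65, SE 0.16), without overlap, with intact mouse 112 far above the other tumors. Among luminal markers 3 passed higher and 6 lower of 14, so the list as a whole had a median of -0.02. KRT19, a keratin, had 8.19 to 25.7 TPM, median 13.7, in PRE-CX and 1.02 to 3.62 TPM, median 1.65, in POST-CX (-2.35, SE 0.39), while KRT8 and KRT18 fell, with log2 differences of -0.36 and -0.37, and STEAP2 rose by 1.02. Of 20 neuroendocrine genes 6 were tested and 3 passed higher (2 without tumors of low human total): DDC, CPE and SYT1. CPE, which processes peptide hormones, had 46.2 to 126 TPM, median 91.5, in PRE-CX and 92.7 to 254 TPM, median 156, in POST-CX (0.73, SE 0.23), and SYT1, a vesicle calcium sensor, rose from a median of 0.296 to 2.05 TPM. With the TPM as deposited 1 neuroendocrine gene passed higher, and CPE did not pass (0.46, adjusted p = 0.444 by limma). The defining markers CHGA, NCAM1 and INSM1 did not pass the filter.

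Stress programs differed from one another. GDF15, a secreted stress hormone on both the ATF4 and p53 lists, had 656 to 2576 TPM, median 945, in PRE-CX and 138 to 332 TPM, median 207, in POST-CX, without overlap (-2.37, SE 0.37, adjusted p = 5.41e-06). Of 23 tested ATF4 genes 6 passed lower and 1 higher, with a median of -0.14, and 4 of the 6 (VLDLR, DDIT4, STC2 and VEGFA) are also on the hypoxia list. ATF4, ASNS and TRIB3, the factor and its amino acid and feedback targets, did not pass, with -0.14, 0.21 and -0.15. Of 24 p53 genes 3 passed higher and 2 lower, with a median of 0.11, beside 20.6% of all genes higher and 5.62% lower. SESN1, a sestrin that restrains mTORC1, had 28.3 to 82.7 TPM, median 51.4, in PRE-CX and 97.5 to 342 TPM, median 242, in POST-CX, without overlap (2.06, SE 0.32), while CDKN1A and MDM2 differed by 0.01 and 0.03. Of 30 genes of folding and secretion in the endoplasmic reticulum 1 passed higher (ATF6, 0.38) and 2 lower (SEC61B, -0.33, and KDELR2, -0.23), with a median of -0.01, and after centering none passed higher and 10 lower. The KDELR2 call was lost in 7 of 28 alternatives, among them leaving out mouse 48 (adjusted p = 0.0568). HSPA5, the main chaperone there, differed by 0.11. Medians near that of all genes turned sign with scaling: after centering those of the steroid synthesis, fatty acid and p53 lists were -0.05, -0.10 and -0.09, and with the TPM as deposited those of the apoptosis and mitochondrially encoded lists were -0.02 and -0.04. The medians of the endoplasmic reticulum and polyamine lists were 0.01 and 0.02 without mice 48 and 91.

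Several polyamine enzymes fell, and the prostate is known for secreting polyamines into seminal fluid. ODC1, the first enzyme, had 162 to 869 TPM, median 303, in PRE-CX and 118 to 212 TPM, median 179.5, in POST-CX (-0.93, SE 0.20). SMS, spermine synthase, had 159 to 974 TPM, median 306, and 139 to 177 TPM, median 160.2 (-1.07, SE 0.18, adjusted p = 1.68e-05). In both genes intact tumors spread widely with mouse 112 highest, 3 castrated tumors were below the intact range and the remaining 5 overlapped it. AMD1 and SAT1 fell, with log2 differences of -0.80 and -0.75, and the list of 15 had 4 passing lower and 2 higher (AOC1 and PAOX). Of 31 proteasome genes 8 passed lower and none higher (limma, unadjusted 10 lower and none higher), with a median of -0.14, beside 5.62% of all genes lower. After centering 22 passed lower, and with the TPM as deposited 2 did. PSMD8 and PSMA6 fell, with log2 differences of -0.76 and -0.48 without overlap. Of 14 tested apoptosis regulators 3 passed higher (BMF, BCL2 and MCL1, by 0.75, 0.68 and 0.52) and 2 lower (BAK1 and BCL2L1, -0.31 and -0.31). The share higher was close to the 20.6% of all genes, the 2 lower calls were lost in 17 and 9 of 28 alternatives, and with the TPM as deposited no member passed in limma (1 higher and 2 lower at an unadjusted p under 0.05).

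Interferon-stimulated genes were higher in part. Of 26 tested 9 passed higher and 1 lower, with a median of 0.45, beside 20.6% of all genes higher, and without tumors of low human total 7 passed higher and 1 lower, with the TPM as deposited 3 and 1. MX1, an antiviral GTPase, had 1.19 to 3.45 TPM, median 1.95, in PRE-CX and 3.80 to 10.0 TPM, median 5.57, in POST-CX, without overlap (1.16, SE 0.22, adjusted p = 0.000107). DDX58, the sensor RIG-I, rose by 0.93, IFITM1 by 1.28 and IFI6 by 0.89, while ISG15 and OAS1 did not pass, with 0.37 and 0.24, and ISG20 fell by 0.72. Of 18 tested genes of MHC class I presentation 3 passed higher and 1 lower, shares no larger than the 20.6 and 5.62% of all genes. TAP1, the peptide transporter, and ERAP1, which trims peptides, rose by 0.62 and 0.84. B2M, the light chain, had 1397 to 2764 TPM, median 1759, in PRE-CX, and 7 castrated tumors were at 875 to 1300 TPM, below all intact ones, whereas mouse 91 was at 3253, above them. Its log2 difference was -0.72 (SE 0.27, adjusted p = 0.0395), and the call was lost in 10 of 28 alternatives. Mouse 91 was also highest for TAP1, at 47.4 TPM, and the TAP1 call was lost without it (adjusted p = 0.0717). None of the 13 mitochondrially encoded genes passed in limma (2 higher and none lower at an unadjusted p under 0.05), with a median of 0.23.

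Tumors of a group differed from each other by amounts that varied between lists. For each list the median deviation of its genes from the PRE-CX mean was taken in every tumor. In the androgen-induced list this was -0.52 to 0.47 in PRE-CX and -2.17 to -0.99 in POST-CX, so all 8 castrated tumors were below the intact range, with mouse 18 lowest. For the androgen-repressed list 6 of 8 castrated tumors were above the intact range, whose upper end of 1.04 was intact mouse 53, the next intact tumor being at 0.26. The hypoxia list ran from -0.84 in intact mouse 53 to 1.04 in intact mouse 62, a wider range than the -1.38 to -0.50 of POST-CX, and 6 castrated tumors were below all intact ones. In the glycolysis list 4 castrated tumors were below the intact range. The mitosis list ran from -0.47 to 0.48 in PRE-CX, and in POST-CX from -0.61 to 0.22 in 7 tumors and to -1.98 in mouse 91. The same tumor stood apart in DNA replication, at -1.32 against -0.42 to 0.00 in the other 7, and in interferon-stimulated genes, at 0.98 against 0.10 to 0.61.

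**Figure D4:**
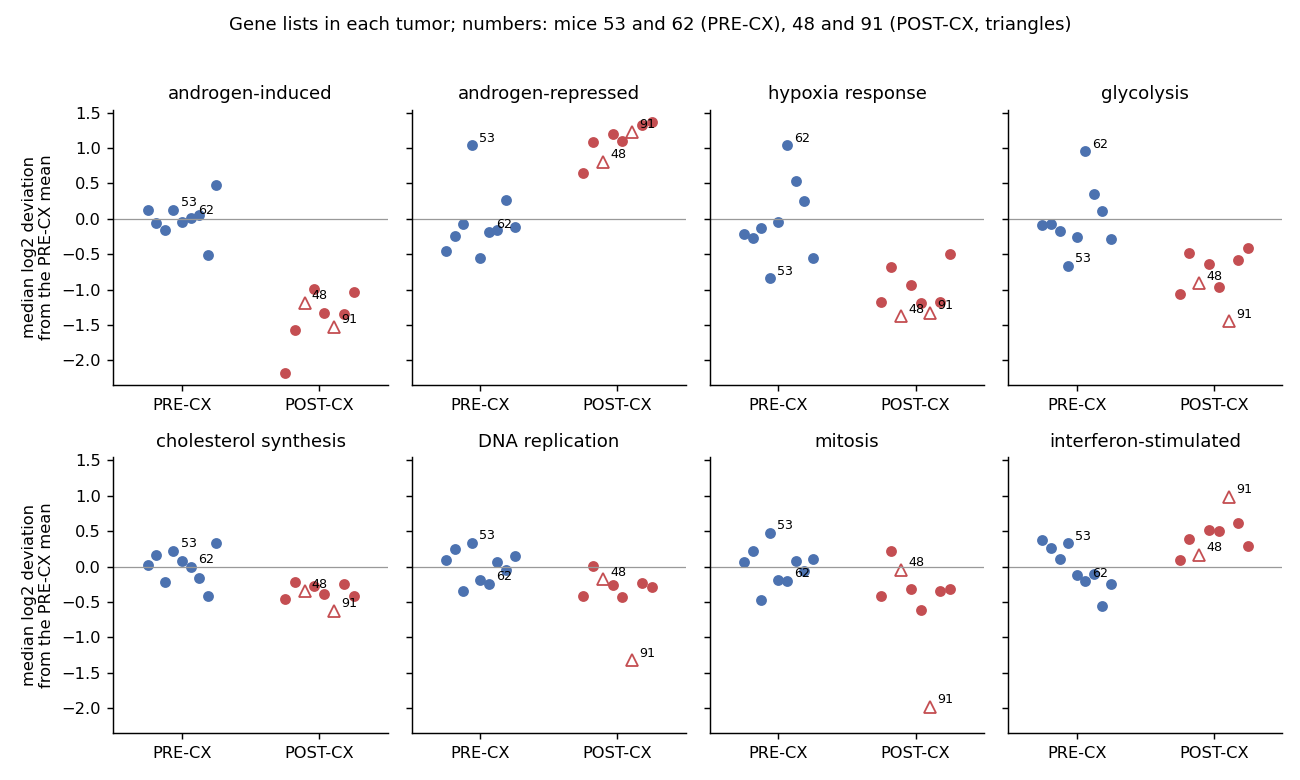
Median log2 deviation of a list's genes from the PRE-CX mean (vertical axis) in each of 9 PRE-CX (blue) and 8 POST-CX (red) tumors for 8 lists. Each point is 1 tumor, triangles are POST-CX mice 48 and 91, and numbers name mice. The androgen-induced list separates the groups, whereas in the mitosis list 6 of 8 POST-CX tumors are within the PRE-CX range and mouse 91 is lowest at -1.98.

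Expression a week after castration was set beside that of the other castrated groups for the named genes. These comparisons use the same POST-CX tumors as the one above. Between CRPC and POST-CX 11 of 17593 genes passed in limma (0.0625%), 1 higher and 10 lower, with 2259 at an unadjusted p under 0.05. Fits of only those groups gave 89 and fits with the TPM as deposited none (1154 at an unadjusted p under 0.05), so the count depended on the fit. The 1 higher in CRPC was LINC00844, a long non-coding RNA, with a log2 difference of 2.45, and among those lower was FAM13A at -1.41. KLK3 was at 4646 ± 1174 TPM in CRPC (SD, n = 10), a mean close to that of PRE-CX, but the difference from POST-CX did not pass (1.63, SE 0.51, adjusted p = 0.147 by limma). Its fall from PRE-CX to POST-CX, which passed, was of similar size (-1.58, SE 0.52). The p-values were adjusted within each comparison. FKBP5 and LOX were at 33.4 ± 14.8 and 0.709 ± 1.15 TPM in CRPC, with differences from POST-CX of 0.08 and -0.37 that did not pass.

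Between ENZS and POST-CX 4871 genes passed (27.7%). MKI67 was at 2.07 ± 1.598 TPM in ENZS (SD, n = 12) against 10.6 ± 2.76 in POST-CX (n = 8), a log2 difference of -2.05 (adjusted p = 3.61e-06), and FEN1 and MAD2L1 were also lower, with differences of -1.33 and -1.47. OPRK1 was higher still in ENZS, at 146 ± 66.9 TPM (1.88, adjusted p = 0.00188), and so were AOC1 (2.84), CPE (1.68, adjusted p = 4.85e-07) and FOLH1 (0.57). VLDLR and ERO1A, which had fallen at castration, were higher in ENZS than in POST-CX by 0.95 and 1.11 (adjusted p = 9.32e-05 and 0.02). KLK3, FKBP5 and DDC did not pass between these groups, with differences of 0.48, -0.49 and 0.68.

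**Figure D5:**
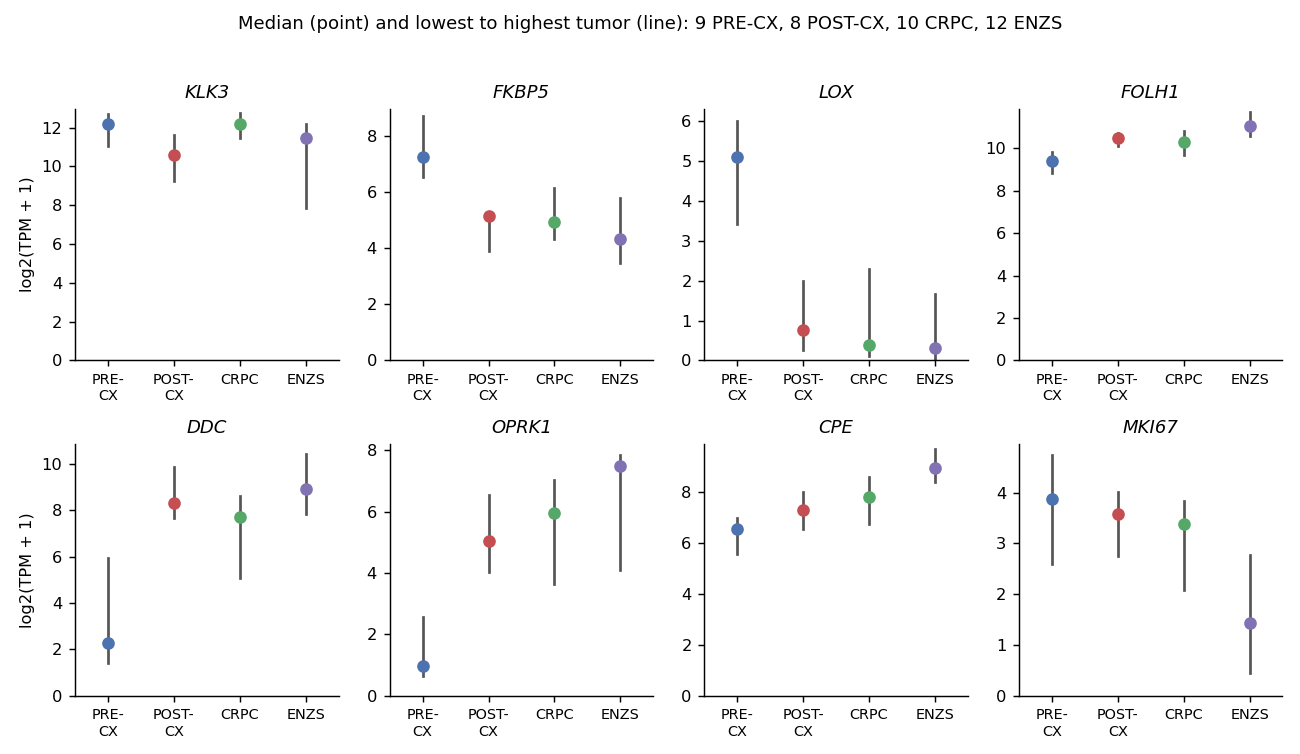
Median (point) and lowest to highest tumor (line) of 8 genes as log2(TPM + 1) in PRE-CX (n = 9), POST-CX (n = 8), CRPC (n = 10) and ENZS (n = 12). FOLH1, DDC and OPRK1 are higher and FKBP5 and LOX lower in every castrated group than in PRE-CX by their medians, and MKI67 has its lowest median in ENZS.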

How the data were processed

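Polyadenylated RNA of 54 snap-frozen tumors was sequenced, and the deposited values are TPM per human gene symbol, which the authors made by aligning reads to human GRCh38 and mouse GRCm38 together and keeping the human genes. The submitters' processing notes name FastQC 0.11.9, Trim Galore 0.6.5, STAR 2.7.2b and RSEM 1.3.3. TPM carry no read depth, so no interval for counting error could be given.

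Of 60642 symbols, 17593 with at least 1 TPM in at least 8 tumors were tested after each tumor was rescaled to 1000000. Groups came from the labels, and no mouse number was shared between groups. Values of log2(TPM + 1) were fitted with limma 3.58.1 (R 4.3.3, trended empirical Bayes) with 5 group means over all 54 tumors, and p-values were adjusted by Benjamini-Hochberg over all genes tested. A gene passed at an adjusted p under 0.05 and was called if its log2 difference was also at least 1. The procedure was tested on simulated data. Tables were made with Python 3.11.15, pandas 2.3.3 and numpy 2.4.6. Symbols matched RefSeq (GRCh38.p14) for 80 of 84 named genes.

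The comparison and the 27 gene lists (587 genes, 499 tested) were chosen with earlier results of these data known. The named genes were a fixed panel of 10, the 10 strongest rises and 10 strongest falls among called genes whose higher group averaged 5 TPM or more, and in each list the 2 passing members with the largest change in each direction at that level, or the member with the smallest p where none passed. Other list members and genes in the text were chosen after their values were seen. Alternatives were the TPM as deposited, centering, a pseudocount of 0.1, other filters and fits, and leaving out tumors. Leaving out POST-CX mice 48 and 91 together, and all alternatives for CRPC and ENZS, were chosen after seeing the data. Values of a few of these genes are not reported here.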

Additional observations from a re-analysis of the deposited data

Results flagged for a closer look

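Dixon's test at the 95% level was run on log2(TPM + 1) in 160 groups of tumors (each of 80 named genes in either group). In 14 of them a tumor lay far from the others, which chance does in about 1 of 20 groups. That rate does not hold for AP001160.5 in POST-CX, where every tumor but mouse 48 was at 0. POST-CX mouse 91, with the lowest human total, accounted for 5 of the 14. It had the lowest FKBP5 (14.1 TPM), PRIM2 (8.46 TPM) and MAD2L1 (21.4 TPM) and the highest B2M (3253 TPM) and TAP1 (47.4 TPM) of the castrated tumors.

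Among the other castrated tumors, mouse 48 had 7.13 TPM of AP001160.5, which was listed at 0 in the rest, and mouse 99 had the lowest SESN1 (97.5 TPM), which was still above every intact tumor. Among intact tumors, mouse 111 was lowest for ORM1 (4.32 TPM), STARD4 (7.81 TPM) and TAP1 (6.66 TPM), and mouse 53 for AP001160.5 (0.841 TPM) and ISG20 (15.4 TPM). Intact mouse 112 was highest for SPDEF, at 146 TPM, and intact mouse 58 for COL3A1, at 3.10 TPM.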

How the results depend on the processing

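The number of called genes was 645 and stayed between 448 and 757 except with a pseudocount of 0.1, which gave 1499 (1196 higher). Called higher genes numbered 157 with the TPM as deposited and 225 after centering, and called lower genes 347 after centering. Leaving out 1 tumor gave 553 (without POST-CX mouse 91) to 721 called genes (without PRE-CX mouse 53). For CRPC against POST-CX, where 11 genes passed, the count was 0 as deposited, 2025 with array weights, 38 after centering, 7 with the filter within the 17 tumors, 89 with only the compared groups in the fit, 7 with a pseudocount of 0.1, 46 when rescaled without mitochondrially encoded genes, 85 without mice 48 and 91 and 40 without tumors of low total. It ranged from 0 (without POST-CX mouse 44, 66, 86 or 92) to 44 (without mouse 48) when 1 tumor was left out. For ENZS against POST-CX, where 4871 passed, array weights gave 7876. The causes were not tested. The log2 difference of SQLE, which did not pass, turned from -0.04 to 0.0087 when rescaled without mitochondrially encoded genes. Of 84 named genes, 49 kept their call and direction in every alternative that gave a value (28, or 27 for MT-ND2, which has none without mitochondrially encoded genes), among them 47 of the 80 that passed. No paired analysis was possible because the groups share no mouse numbers.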

Other observations

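Intact tumors differed among themselves in several of the genes that rose most after castration. In a split chosen after seeing the data, 4 PRE-CX tumors had human totals of 82.7 to 86.1% and 5 had over 90% and up to 97.5%. ATP1B1 was at 49.2 to 83.6 TPM in the first and 2.71 to 17.9 in the second, ACKR3 at 14.0 to 43.4 and 0.379 to 6.70, GASK1B at 35.2 to 78.3 and 1.599 to 32.7, STXBP5L at 4.28 to 19.6 and 0.0410 to 1.32, and BCHE at 1.20 to 5.02 and 0.0210 to 0.766. These 5 of the 10 largest rises were higher without overlap in the tumors with lower totals, as were 1.61% of all genes tested. A link of these genes with the human total was not tested, and a split chosen this way could not test it. Among the 10 largest falls only STEAP4 did not overlap, at 5.81 to 11.9 TPM in the first and 13.9 to 39.9 in the second.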
